A study of Mus musculus with 6 samples.

Results

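The genes described here are 37 genes by which neutrophils, mast cells, basophils and eosinophils are recognised, from granule proteases to cytokine receptors. They were chosen by name, and each was read at 1 probe set, the one with the highest mean log2 signal over all 6 arrays among those annotated to that gene alone. Of the 37, 36 had such a probe set among 18193 genes measured, and Cebpe had none here. The RNA came from Ter119-positive cells of mouse fetal liver at embryonic day 14.5, and each array held 1 pool of 3 to 5 embryos of 1 genotype. There were 3 wild type pools and 3 STAT5 KO pools, called knockout below. The alleles behind the name STAT5 KO, the strain and the exact number of embryos in each pool are not named by the labels, and both groups share the stage and the Ter119 selection.

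Granulocytes arise from the same fetal liver progenitors as red cells. The earliest neutrophil precursors fill primary granules with myeloperoxidase and serine proteases, later stages add secondary and tertiary granules, and mast cells, basophils and eosinophils carry granule sets of their own. Ter119 marks maturing red cell precursors and is absent from mature granulocytes, so that transcripts of these genes in the selected cells can come from other cells that remained or from the erythroid cells themselves. STAT5A and STAT5B act below the erythropoietin receptor and also below receptors for interleukin-3, interleukin-5 and GM-CSF, which drive the granulocyte lineages.

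The values are linear intensities, called signals, with a median per array of 175.6 to 215.8. A background was set from 27 probe sets for transcripts of Bacillus subtilis, which mouse RNA should not match: their 95th percentile over all arrays, a signal of 162.5, is called the control level. A gene with a group mean under it is treated as having only an upper bound in that group. All 9 measured erythroid genes of a list of 12 lay above it, and so did 17 of 18 macrophage and monocyte genes, 6 of 6 general leukocyte genes and 12 of 12 measured hepatocyte genes. The brighter Stat5a probe set read 338.5, 418 and 366 in wild type and 132, 124 and 156 in knockout pools, and that of Stat5b 576, 552 and 506 against 205, 334 and 159.9. In log2 signal, knockout minus wild type, these sets differed by -1.44 and -1.29. The other Stat5a set differed by -3.77 and the other Stat5b set by -2.54. In knockout pools every probe set of either gene was lower than in each wild type pool. Whether those probe sets lie inside the deleted parts is not stated by the labels. Replicates are called separate biological repeats in the labels. In pooled RNA, fewer cells of a type and less RNA per cell cannot be told apart.

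Of the 36 genes, 19 had means above the control level in both genotypes, 6 in 1 of them and 11 in neither. So 25 were above it somewhere, where 12442 of all 18193 genes were, 11174 of them in both genotypes. Most of the neutrophil genes were above: 12 of 13 granule and antimicrobial genes and all 4 NADPH oxidase genes. Of those 12, Mmp8 was above in wild type alone and Mmp9 in knockout pools alone. Of 10 mast cell and basophil genes only Cma1, Srgn and, in knockout pools alone, Ms4a2 were above. The defining genes Cpa3, Mcpt4, Mcpt8, Tpsb2, Fcer1a and Hdc were under it in both genotypes. Of the eosinophil genes, Prg3 and Il5ra were under it in both, and Prg2 and Epx were above it in wild type only. The 11 genes that were under it in both genotypes (Camp, Gfi1, Cpa3, Mcpt4, Mcpt8, Tpsb2, Fcer1a, Hdc, Gzmb, Prg3 and Il5ra) had signals between 9.94 and 222 and get no fold change.

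The primary granule genes had a similar order of pools, described below, and the windows of 250 bases before the start of Mpo, Elane, Prtn3 and Ctsg are shown for that reason, with those of the neighbouring genes S100a8 and S100a9. They are taken from RefSeq (build GRCm38.p6) and run 5′ to 3′ on the strand of the gene. Capitals mark matches, on either strand, to GAGGAA (the core bound by the myeloid factor PU.1), to TTGCNNAA (a form of the C/EBP site) and to TTCNNNGAA (the STAT site).
Mpo, chr11:87793534-87793783, plus strand: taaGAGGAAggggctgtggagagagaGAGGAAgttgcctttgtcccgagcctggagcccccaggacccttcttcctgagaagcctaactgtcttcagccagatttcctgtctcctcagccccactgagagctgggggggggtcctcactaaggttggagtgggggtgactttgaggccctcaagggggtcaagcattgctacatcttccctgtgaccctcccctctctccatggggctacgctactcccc
Elane, chr10:79886062-79886311, plus strand: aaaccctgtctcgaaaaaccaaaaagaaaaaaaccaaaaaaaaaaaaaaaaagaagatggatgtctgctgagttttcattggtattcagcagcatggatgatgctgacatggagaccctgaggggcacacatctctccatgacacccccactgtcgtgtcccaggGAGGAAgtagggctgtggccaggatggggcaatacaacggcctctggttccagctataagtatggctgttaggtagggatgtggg
Prtn3, chr10:79879417-79879666, plus strand: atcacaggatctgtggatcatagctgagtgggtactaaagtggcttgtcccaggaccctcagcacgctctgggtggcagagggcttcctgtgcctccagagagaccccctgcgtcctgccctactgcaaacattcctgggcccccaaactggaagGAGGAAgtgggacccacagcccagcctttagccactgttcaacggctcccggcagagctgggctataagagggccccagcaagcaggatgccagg
Ctsg, chr14:56102575-56102824, minus strand: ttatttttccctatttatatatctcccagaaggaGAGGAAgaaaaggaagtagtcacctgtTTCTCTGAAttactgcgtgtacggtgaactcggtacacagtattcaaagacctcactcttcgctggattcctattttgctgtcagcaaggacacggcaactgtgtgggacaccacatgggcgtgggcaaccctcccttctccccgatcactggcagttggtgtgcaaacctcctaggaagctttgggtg
S100a8, chr3:90668821-90669070, plus strand: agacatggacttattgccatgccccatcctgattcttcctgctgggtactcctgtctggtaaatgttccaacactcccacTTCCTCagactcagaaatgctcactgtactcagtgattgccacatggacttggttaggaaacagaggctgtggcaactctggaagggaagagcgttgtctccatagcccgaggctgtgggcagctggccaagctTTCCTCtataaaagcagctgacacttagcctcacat
S100a9, chr3:90695722-90695971, minus strand: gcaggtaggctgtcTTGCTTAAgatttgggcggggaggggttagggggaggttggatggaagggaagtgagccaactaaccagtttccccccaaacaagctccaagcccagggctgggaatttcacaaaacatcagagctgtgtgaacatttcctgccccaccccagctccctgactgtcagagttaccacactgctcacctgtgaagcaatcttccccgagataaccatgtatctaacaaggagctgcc

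All 4 primary granule genes and S100a8 held GAGGAA or its complement, and S100a9 did not. Of the 31 genes with a window in the RefSeq table, 11 held it, where 25.9% of all 27025 genes with a window did. TTGCNNAA stood in the windows of 8 of the 31, those of Fcer1a, Fcnb, Gfi1, Lcn2, Ltf, Mmp8, Ngp and S100a9, against 10.8% of all genes. TTCNNNGAA stood in 2, Ctsg and Ncf1, against 8.13% of all genes. A match describes letters only. In the same annotation Prtn3 and Elane are direct neighbours on chromosome 10, as are S100a8 and S100a9 on chromosome 3, and Mcpt4, Mcpt8 and Ctsg lie in a row on chromosome 14. Ctsg was above the control level in both genotypes, while its neighbours Mcpt4 and Mcpt8 were under it in both.

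Knockout and wild type pools were compared with limma on log2 signal, with p-values adjusted over all 18193 genes by the Benjamini-Hochberg method and a threshold of 0.05. None of the 36 genes passed, where 0.044% of all genes did. With a mean-variance trend in the model again none passed, where 0.44% of all genes did, and the smallest adjusted p was 0.0689, that of Cebpd. At an unadjusted p under 0.05 there were 3, Mmp8, Mmp9 and Cebpd, where 8.9% of all genes were, and with the trend 5, S100a8 and Epx besides, where 11% of all genes were. Every knockout pool lay below every wild type pool for 5 genes, Lcn2, Mmp8, Mcpt8, Srgn and Epx, where 9.85% of all genes did so. Every knockout pool lay above every wild type pool for 2, Ncf4 and Cebpd, where 7.02% of all genes did so. Both shares are near those of all genes. The difference in log2 signal, knockout minus wild type, was below 0 for 25 of the 36 genes, with a median of -0.22, where the median of all genes was -0.08 and 58.1% were below 0. Among the 25 genes above the control level somewhere it was below 0 for 18, where 55.8% of all such genes were. Of those 25, 4 were lower and 2 higher without overlap, where 10.9% and 9.15% of all such genes were. By the submitters' own criterion, an unadjusted p under 0.05 in the methods' t-test and over 1.5-fold, 1 of the 36 differed, Cebpd, where 4.81% of all genes met it. After adjustment of that test none of the 36 remained, where 0.022% of all genes did.

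**Figure D1:**
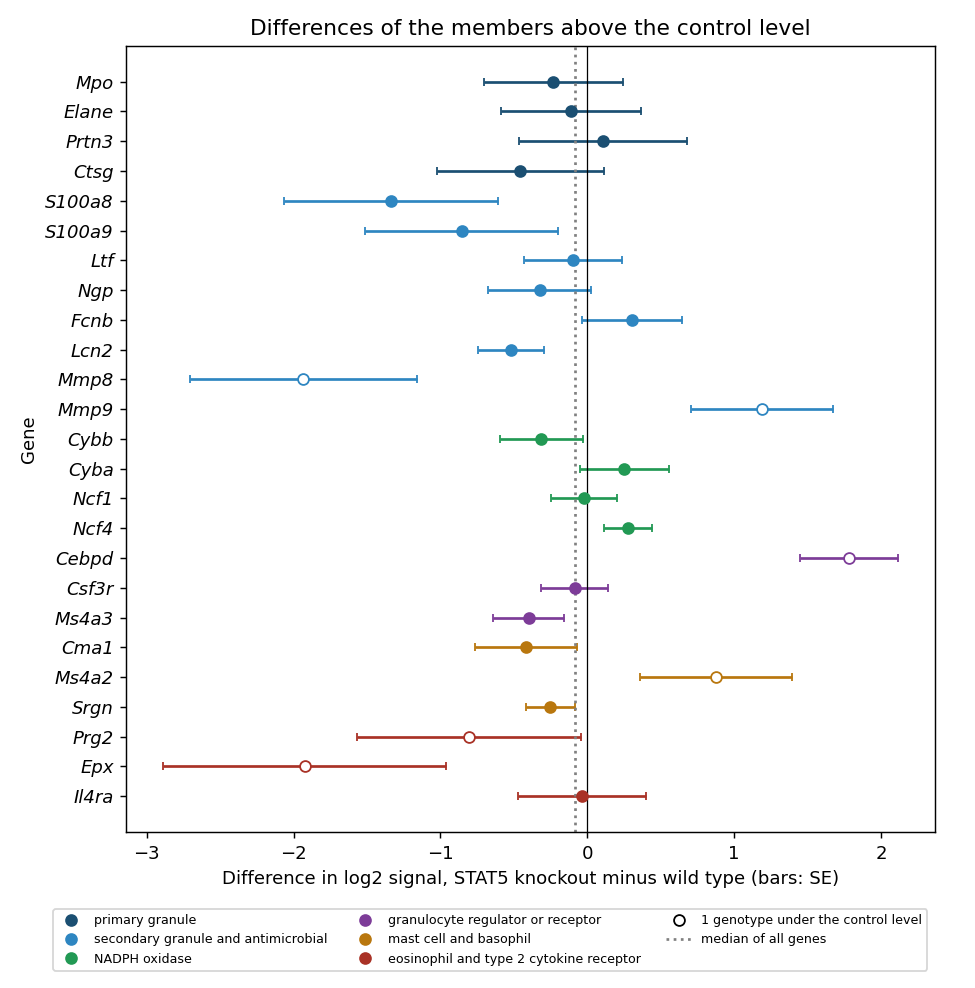
Difference in log2 signal, knockout minus wild type (horizontal axis), of the 25 genes above the control level in 1 or both genotypes (vertical axis), with SE bars of limma's fit, n = 3 pools per genotype. Open points have 1 genotype under the control level, where the plotted value is not a bound. The dotted line is the median of all genes, and the values run from -1.93 for Mmp8 to 1.78 for Cebpd.

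Primary granule genes differed more among pools of 1 genotype than between genotypes. Mpo encodes myeloperoxidase, which makes hypochlorous acid in the phagosome. Its signal was 1817, 2464 and 1519 in the wild type and 1409, 3138 and 950.3 in the knockout pools, numbered 1 to 3. Both the highest and the lowest pool were knockouts, so that the genotypes overlapped fully. The difference was -0.23 (SE 0.47, 95% interval -1.39 to 0.93), with an adjusted p of 0.890.

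Elane, neutrophil elastase, read 425, 529.5 and 255 in wild type and 321, 647 and 219 in knockout pools. Prtn3, proteinase 3, read 396, 526 and 259 against 348, 894 and 216. The second pool was the highest and the third the lowest in each genotype for both proteases. Their differences were -0.11 (SE 0.48, 95% interval -1.28 to 1.06) and 0.11 (SE 0.57, 95% interval -1.29 to 1.50). Ctsg, the chymotrypsin-like cathepsin G, read 271, 572 and 156 in wild type and 295, 259 and 122 in knockout pools, a difference of -0.46 (SE 0.57). Its knockout pools 1 and 2 were close to each other, unlike those of the other 3 genes, and the third pool was again the lowest in each genotype. The adjusted p of the 4 genes ran from 0.818 to 0.963. The sign of each turned when 1 pool was left out: without knockout replicate 3 the difference was 0.15 for Mpo and 0.24 for Elane, without knockout replicate 2 it was -0.46 for Prtn3, and without wild type replicate 2 it was 0.037 for Ctsg.

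**Figure D2:**
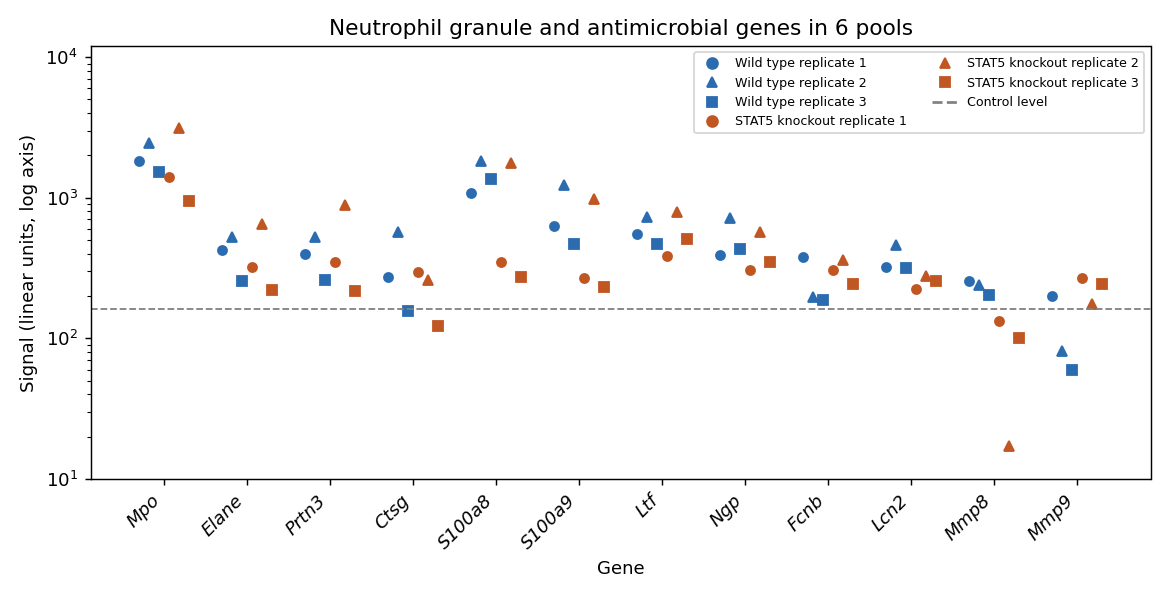
Signal of 12 neutrophil granule and antimicrobial genes (horizontal axis) in each of the 6 pools, on a log axis, with the control level as a dashed line. Triangles, the second pools, are highest in both genotypes for 8 of the 12 genes, Mpo, Elane, Prtn3, S100a8, S100a9, Ltf, Ngp and Lcn2.

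The calprotectin pair had the widest range over the 6 pools among neutrophil genes above the control level in both genotypes, with a highest over lowest signal of 6.74 for S100a8 and 5.28 for S100a9. S100a8 and S100a9 encode the 2 subunits of calprotectin, the abundant calcium and zinc binding protein of the neutrophil cytosol. S100a8 read 1083, 1829.9 and 1359.7 in wild type and 351, 1756 and 271 in knockout pools. Knockout pools 1 and 3 lay below all wild type pools, and knockout pool 2 lay within the wild type range. The difference was -1.34 (SE 0.73, 95% interval -3.12 to 0.45, adjusted p = 0.625 by limma). Without knockout replicate 2 it was -2.17, with an adjusted p of 0.0376 in limma's fit with the trend, the only fit without 1 pool in which that model called any of the 36 genes, and 0.231 in the fit without it. Leaving out another knockout pool moved it the other way, to -1.01 without replicate 1 and -0.83 without replicate 3, with adjusted p of 0.705 and 0.724 with the trend. The probe set of S100a8 has a name ending in _s_at, which marks a set that can match more than 1 transcript. S100a9 read 628, 1227 and 471 in wild type and 268, 984 and 233 in knockout pools, a difference of -0.86 (SE 0.66). As with S100a8, knockout pools 1 and 3 were below and knockout pool 2 within the wild type range, and without knockout replicate 2 the difference was -1.52. Dropping wild type pool 2 gave -0.47, knockout pool 1 -0.58 and knockout pool 3 -0.48.

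Among genes of later granules, Ltf, the iron-binding lactoferrin of secondary granules, read 553, 733 and 465 in wild type and 386, 791 and 505 in knockout pools, a difference of -0.10 (SE 0.33). Ngp, neutrophilic granule protein, read 394, 714 and 429 against 306, 574 and 349, a difference of -0.33 (SE 0.35). The genotypes overlapped for both, with the second pool highest in each. Fcnb, a ficolin of granulocytes that binds microbial sugars, read 382, 197 and 187 in wild type and 305, 359 and 242 in knockout pools, a difference of 0.31 (SE 0.34). Here the first wild type pool was the highest of all 6. Camp, the cathelicidin gene, had signals of 27.7 to 71.5, all under the control level.

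Lcn2 and Mmp8 were the 2 neutrophil granule genes without overlap. Lcn2 encodes lipocalin 2, which binds bacterial siderophores and is also made by liver cells in the acute phase. Its signal was 323, 461 and 318 in wild type and 225, 279.6 and 257 in knockout pools. All knockout pools were lower, by -0.52 (SE 0.22, 95% interval -1.07 to 0.03), and the adjusted p was 0.574. Mmp8, neutrophil collagenase, read 258, 239 and 205 in wild type and 132, 17.2 and 99.9 in knockout pools. All 3 knockout values were under the control level, so that wild type was at least 1.43-fold higher, with an adjusted p of 0.560. Mmp9, a gelatinase of tertiary granules, went the other way, with 201, 80.6 and 59.8 in wild type and 267, 176 and 245 in knockout pools. The first wild type pool lay within the knockout range, wild type was under the control level on average, and knockout was at least 1.29-fold higher (adjusted p = 0.560). The dimmer Mmp9 probe set, under the control level in both genotypes, also had a higher mean in knockout pools, by 0.66.

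Most of the neutrophil granule and antimicrobial genes were highest in the second pool in both genotypes. Over the 12 granule and antimicrobial genes above the control level, the second pool was the highest in both genotypes for 8, where this held for 16.2% of all 12442 genes above that level. The second wild type pool was the highest for 9 of the 12 (40.8% of all such genes), and the second knockout pool for 9 (34.6%). The median signal per array was also highest in the second pool of each genotype (215.8 and 184.8) and lowest in the third (175.6 and 177.2). The part of that in the order of the granule genes was not tested. In wild type the third pool was the lowest for 10 of the 12 (40.7% of all such genes), and in knockout for 7 (33.7%). The mean deviation of the 4 primary granule genes from their own 6-pool mean, in log2 signal, was 0.10, 0.66 and -0.50 in wild type and -0.11, 0.73 and -0.88 in knockout pools. For the secondary granule and antimicrobial genes the same mean was 0.32, 0.46 and -0.10 against -0.33, 0.07 and -0.41. The 4 NADPH oxidase genes differed, with -0.18, 0.09 and 0.02 against -0.06, -0.08 and 0.21, so that their highest mean was in the third knockout pool. Mpo, Elane, Prtn3, Ctsg, S100a8, S100a9 and Prg2 had a pooled within-genotype SD over 2 times the median SD of genes of like mean signal, which 7.39% of all genes above the control level had. For S100a8 that SD was 1.07 against a median of 0.23, and for Mpo 0.67 against 0.21. Whether the numbers 1 to 3 mark a shared litter or day is not stated in the labels.

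General leukocyte and macrophage genes shared only a part of that order. Their sums were highest in the second pool in wild type but in the third in knockout, and lowest in the first pool of each genotype. Summed over 6 general leukocyte genes, the signal was 6648, 7965 and 7735 in wild type and 6587, 8010.4 and 9075 in knockout pools. Over 18 macrophage and monocyte genes it was 29518, 48154 and 40970.1 against 35288, 38784 and 47913. The third knockout pool, the lowest in all 4 primary granule genes, had the highest leukocyte sum of the 6 pools. Summed over the 9 erythroid genes the signal was 272241, 270357 and 262010 in wild type and 215205, 269365 and 222805 in knockout pools. Knockout pools 1 and 3, which were low in S100a8 and S100a9, thus had the lowest erythroid sums. Such a sum is weighted to the brightest genes, and for Epor, Gata1 and Klf1 the second wild type pool was the lowest. The highest signal on an array was 54356 in knockout pool 1, 62212 in knockout pool 3 and 62794 to 78744 in the other pools. The part of the differences in these sums in the values of the granule genes was not tested.

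**Figure D3:**
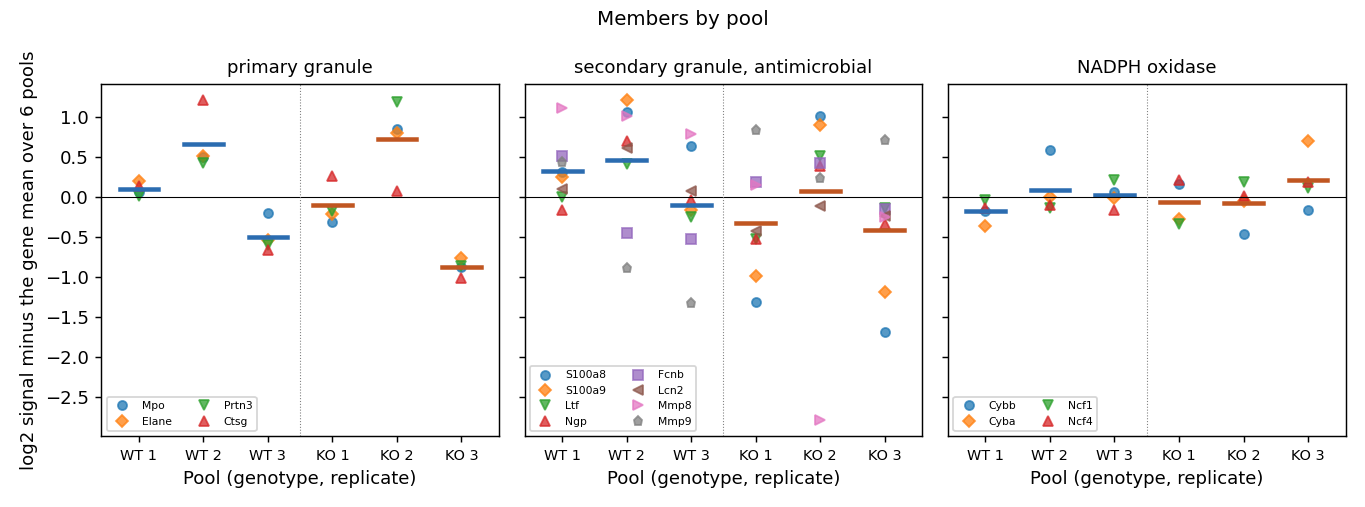
Deviation of log2 signal from the mean of each gene over 6 pools (vertical axis) by pool (horizontal axis), for primary granule, secondary granule and antimicrobial, and NADPH oxidase genes above the control level. Horizontal bars are the mean over the genes shown, blue in wild type and orange in knockout, and for the primary granule genes the bars are highest in the second pools (0.66 and 0.73) and lowest in the third (-0.50 and -0.88).

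The NADPH oxidase makes superoxide in phagocytes. Cybb and Cyba encode the 2 membrane subunits, gp91phox and p22phox, and Ncf1 and Ncf4 the cytosolic subunits p47phox and p40phox. Ncf4 read 2203, 2269 and 2170.0 in wild type and 2818, 2459.6 and 2773 in knockout pools. Every knockout pool was higher, the wild type SD was only 0.03, and the difference was 0.28 (SE 0.16, 95% interval -0.13 to 0.68) with an adjusted p of 0.641. That difference ran from 0.21 to 0.39 over all alternatives tried, and none of them gave an adjusted p under the threshold.

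Cyba read 1517, 1953 and 1931 in wild type and 1609, 1889 and 3175 in knockout pools, a difference of 0.25 (SE 0.30). Knockout pool 3 stood above the other 5, and without that pool the difference was -0.04. Cybb read 317, 538 and 372 in wild type and 402, 259 and 318 in knockout pools, a difference of -0.31 (SE 0.28), and its other 2 probe sets differed by -0.07 and -0.09. Ncf1 read 524, 489 and 626 against 428, 613 and 584, a difference of -0.02 (SE 0.22, 95% interval -0.57 to 0.52). The genotypes overlapped at these 3 genes. Another Ncf1 probe set above the control level differed by -0.67, and a dimmer one under it by 0.83, so that the probe sets of Ncf1 disagree.

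Cebpd had the largest positive difference and the smallest adjusted p of the 36 genes. It encodes C/EBP delta, a transcription factor of late granulocyte maturation and of acute phase and STAT3 responses in many cells. Its signal was 108, 154 and 183 in wild type and 382, 443 and 730.3 in knockout pools. Every knockout pool was higher than every wild type pool, and the wild type mean lay under the control level, so that knockout was at least 2.95-fold higher. The fitted difference was 1.78 (SE 0.33, 95% interval 0.97 to 2.60), which did not pass over all genes (adjusted p = 0.296, and 0.0689 with the trend). With the trend and 1 pool left out the adjusted p ran from 0.0776 to 0.304. The second Cebpd probe set was under the control level in both genotypes and differed by 0.37 with full overlap, and with the mean of both probe sets the difference was 1.08. Summed hepatocyte signal, given with the eosinophil genes, was lower in knockout pools, and its part in the difference of Cebpd was not tested.

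The other regulators and receptors differed less. Csf3r, the receptor for G-CSF, the main cytokine of neutrophil production, read 315, 392 and 303 in wild type and 258, 385 and 315 in knockout pools, a difference of -0.09 (SE 0.23, 95% interval -0.64 to 0.47). Ms4a3, a membrane protein of granulocyte and monocyte progenitors, read 582, 698 and 505 against 512, 502 and 349, a difference of -0.40 (SE 0.24). The genotypes overlapped for both genes. Gfi1, a repressor needed for neutrophil formation, had signals of 20.3 to 68.3, under the control level throughout.

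**Figure D4:**
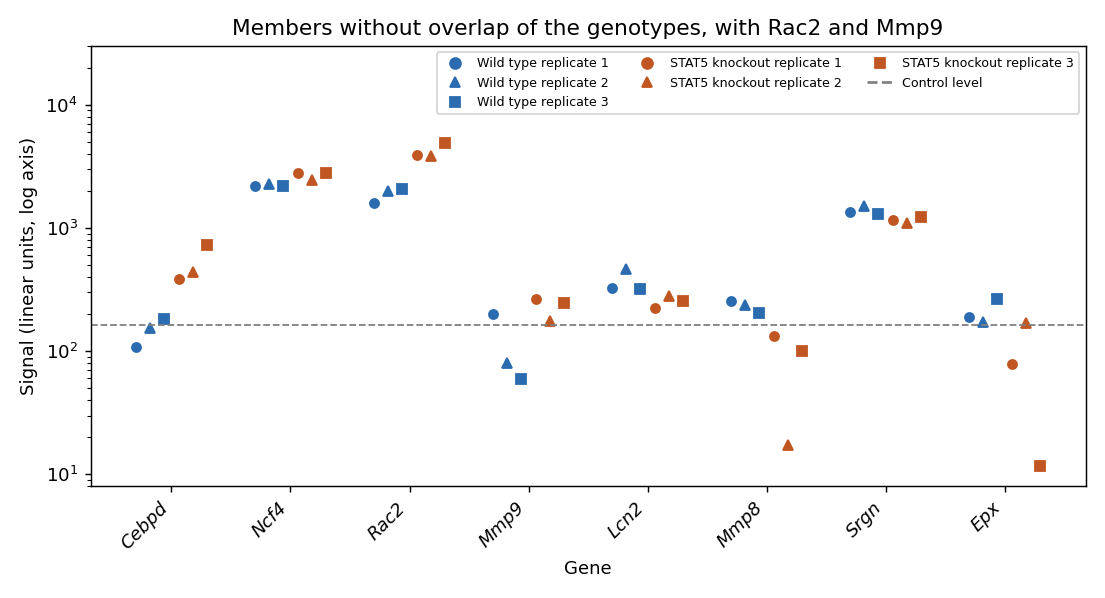
Signal in each of the 6 pools, on a log axis, of the 6 genes whose genotypes did not overlap and which exceeded the control level in 1 or both genotypes (Cebpd, Ncf4, Lcn2, Mmp8, Srgn and Epx), with Rac2 and Mmp9. The dashed line is the control level. Cebpd, Ncf4 and Rac2 are higher in all 3 knockout pools, and Mmp9 overlaps through the first wild type pool.

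Among mast cell and basophil genes, Srgn was lower in all knockout pools. Srgn encodes serglycin, the proteoglycan that packs proteases into granules of mast cells and of most other blood cells. It read 1340.4, 1497 and 1294 in wild type and 1152, 1098 and 1217 in knockout pools. The gap was narrow, and the difference was -0.25 (SE 0.17, 95% interval -0.66 to 0.16, adjusted p = 0.669). Cma1, the mast cell chymase, read 323, 380.4 and 211 against 164, 319 and 206, a difference of -0.42 (SE 0.35) with overlap.

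Ms4a2, the beta chain of the IgE receptor, read 167, 48.9 and 105 in wild type and 186, 244 and 116 in knockout pools. The genotypes overlapped, and the knockout mean was at least 1.06-fold higher (adjusted p = 0.641 by limma). Fcer1a, the alpha chain of the same receptor, read 31.8 to 154 and was under the control level in all pools. Mcpt8, a basophil protease, had no overlap, with 25.9 to 31.8 in wild type and 12.6 to 22.6 in knockout pools, but at these signals no fold can be given. Hdc, which makes histamine, read 11.9 to 41.2, Cpa3, the mast cell carboxypeptidase, 28.1 to 177, and Tpsb2, a tryptase, 27.0 to 122. Gzmb, granzyme B of cytotoxic cells, read 129 to 222, and Mcpt4, another chymase, 9.94 to 39.9.

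Of the eosinophil genes, Epx encodes eosinophil peroxidase. It read 188, 172 and 265 in wild type and 78.7, 171 and 11.7 in knockout pools. The second knockout pool was nearly level with the second wild type pool, and the other 2 were under the control level. Wild type was at least 1.24-fold higher (adjusted p = 0.598). Prg2, major basic protein, read 78.3, 301 and 235 in wild type and 149, 178 and 39.2 in knockout pools. The genotypes overlapped for Prg2, and its wild type mean was at least 1.06-fold higher (adjusted p = 0.750 by limma). Its neighbour Prg3 read 25.4 to 48.6 and Il5ra, the interleukin-5 receptor alpha chain, 23.0 to 146, both under the control level on average. Il4ra, the receptor chain shared by interleukin-4 and interleukin-13, read 433, 153 and 176 against 196, 277 and 199.8, a difference of -0.04 (SE 0.43). The first wild type pool stood above the other 5. Its probe set has a name ending in _x_at, which marks possible cross-hybridisation, and the other 2 sets were under the control level.

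Hepatocyte genes had lower signals in knockout pools. None passed limma's test over all genes, and 7 of 12 had an unadjusted p under 0.05 by limma, against 8.9% of all genes. All 12 measured hepatocyte genes had differences below 0, where 58.1% of all genes had, and 9 were lower without overlap, where 9.85% of all genes were. The list was chosen with earlier results of these data known, so that these shares only describe it. Summed over the hepatocyte genes, the signal was 198728, 266669 and 158771 in wild type and 135286, 143504 and 149495 in knockout pools. Endothelial genes were below 0 for 7 of 8, with sums of 2913 to 4774 in wild type and 2452 to 3041 in knockout pools, which overlapped. The sums over 8 megakaryocyte genes were 4502 to 15458 and 5006 to 6274. Pecam1, Tek and Vwf of these lists were under the control level in both genotypes, and Lyve1 was under it in knockout pools alone. Of the members above the control level somewhere, Lcn2, Mmp8, Srgn and Epx were lower without overlap, and Ncf4 and Cebpd were higher. The part of hepatocyte signal in any of these differences was not tested.

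A further list of 57 granulocyte, mast cell and eosinophil genes was read beside the 36, and 45 of them were measured, 22 above the control level. None passed limma's test over all genes, and 4 of 45 had an unadjusted p under 0.05, against 8.9% of all genes. With the trend 1 passed, Rac2, which rose, where 0.242% of all genes rose, and 0 fell. The median difference was -0.08, equal to that of all genes, with 27 of 45 below 0 against 58.1% of all genes. Without overlap 2 were lower and 5 higher, where 9.85% and 7.02% of all genes were. Rac2 encodes the blood cell GTPase that switches on the NADPH oxidase. It read 1602, 1978 and 2056 in wild type and 3939, 3821 and 4892 in knockout pools. All knockout pools were higher, by 1.17 (SE 0.20, 95% interval 0.67 to 1.66). The adjusted p was 0.269 in limma's fit without the trend and 0.0148 with it. It was also under the threshold without the trend when the 50% dimmest genes were left out (0.0355), and at 0.162 to 0.612 under every other alternative without the trend. With the trend, leaving out 1 pool ended the call in 3 cases, with an adjusted p of 0.0630 when wild type pool 1 was dropped, 0.0680 for knockout pool 1 and 0.0713 for knockout pool 3. Dropping any other pool gave 0.0260 to 0.0451. A second Rac2 probe set, above the control level, differed by -0.26 with overlap, and the mean of both probe sets by 0.45, so that the rise rests on 1 probe set.

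The other genes of that list without overlap and above the control level were Kit, Csf2rb, Alox5ap, Spi1 and Ctsc, and none passed either test. Each was read at 1 probe set, and any other probe sets of these genes were not compared. Kit, the stem cell factor receptor of mast cells and early erythroid progenitors, read 526, 415 and 209 in wild type and 1148, 782 and 569 in knockout pools, a difference of 1.16 (SE 0.43, adjusted p = 0.548). Csf2rb, the shared beta chain of the receptors for GM-CSF, interleukin-3 and interleukin-5, read 861, 901 and 916 against 636, 565 and 763, a difference of -0.46 (SE 0.19, adjusted p = 0.560). Kit was thus higher and Csf2rb lower in every knockout pool. Spi1, which encodes PU.1, differed by 0.26 (SE 0.16), Alox5ap, which serves leukotriene synthesis, by 0.41 (SE 0.22), and Ctsc, the protease that activates the granule serine proteases, by 0.24 (SE 0.20).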

How the data were processed

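RNA from 6 pools was hybridised to Affymetrix Mouse Genome 430 2.0 arrays, per the series' design text. The deposited table holds 1 intensity per probe set and array on a linear scale. Each array has a mean of 500.003 after leaving out 2% of values at each end, as when arrays are scaled one by one. RMA and Partek are named in the submitters' processing notes, but linear values with unequal quantiles do not look like standard RMA, and no source here states the scaling step. Of 45037 probe sets other than 64 controls, 34945 had 1 gene symbol in GEO's platform annotation, 932 several and 9160 none.

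The log2 of the deposited intensity was fitted with limma 3.58.1 in R 4.3.3 (lmFit and eBayes, knockout against wild type, 1 probe set per gene, 18193 genes, no filter), again with a mean-variance trend, and with the methods' t-test, which for 2 groups equals the submitters' ANOVA. Where the mean of the dimmer group was under the control level, a fold is a lower bound, "at least N-fold", with dim values raised to that level. It bounds the ratio of the group means of these pools and takes no account of their spread. Groups of 3 arrays limit the precision, and an exact two-sided permutation test of 3 against 3 cannot go below 0.1. Same-numbered pools were checked for pairing, and the other alternatives are given in the closing section. All members are named, by role. From the further list those past either limma test were named, and those without overlap with both genotypes above the control level. The members and lists were chosen with earlier results of these data known.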

Additional observations from a re-analysis of the deposited data

How the results depend on the processing

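None of the 36 genes, where tested, was called under any of the 16 alternatives to limma's fit without a trend. Leaving out the 50% dimmest genes kept only 15 of them in the test, and Cebpd, Mmp8, Mmp9 and Epx were not among these. Leaving out probe sets ending in _x_at, _s_at or _a_at kept 29, without S100a8. The number of members with limma's or the t-test's unadjusted p below 0.05 ran from 1 to 6 over the alternatives. With the trend and without knockout replicate 2 together, S100a8 was called. The number of all genes called was 8 in that fit, 80 with the trend, 4 by the methods' t-test, 15 after quantile normalization, 3 after median centring, 53 without the 50% dimmest genes, 0 with the replicate number as a block, 3 without probe sets ending in _x_at, _s_at or _a_at, and 0 without either second pool, and it was 0 to 0 in the fits without 1 pool. At an unadjusted p under 0.05 limma gave 1620 genes, 1565 with the block, 1202 without both second pools and 1274 to 2080 without 1 pool. Leaving out both second pools was added after seeing the data. Without overlap, 5 genes were lower and 2 higher. The lower count was 2 without the dimmest genes, which tests fewer genes, 10 without both second pools and 5 to 10 without 1 pool. The share of all genes that was lower without overlap, 9.85%, was then 10.4%, 22.1% and 14.6% to 22%. The higher count was 1 after quantile normalization, 1 without the dimmest genes, 4 without both second pools and 2 to 7 without 1 pool, where the share of all genes, 7.02%, was 7.78%, 11.1%, 16.9% and 10.2% to 12.1%. The median difference over members, -0.22, ran from -0.42 to -0.039 without 1 pool, and over those above the control level, -0.23, from -0.46 to -0.059. Scaling moves the median of all genes, from -0.08 to -0.04 after quantile normalization and 0.03 after median centring.

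Signs turned in these cases, and the cause was not tested. After median centring Elane was 0.0025, Ltf 0.016, Ncf1 0.091, Csf3r 0.026 and Il4ra 0.075. After quantile normalization Ncf1 was 0.015 and Il4ra 0.064, and averaged over its probe sets Ncf1 was 0.046. Without both second pools Prtn3 was -0.22 and Cybb 0.058. Without 1 pool the ranges were -0.71 to 0.15 for Mpo, -0.54 to 0.24 for Elane, -0.46 to 0.56 for Prtn3, -0.90 to 0.037 for Ctsg, -0.38 to 0.14 for Ltf, -0.037 to 0.45 for Cyba, -0.12 to 0.14 for Ncf1, -0.23 to 0.058 for Csf3r and -0.32 to 0.43 for Il4ra. The correlation of the deviations of same-numbered pools from their genotype means, across genes, was 0.023, 0.041 and 0.037, so the numbers were not taken to pair the pools, although each pool correlated best with its own number. The deposited values carry no detection calls, so that genes under the control level are limited to a bound. With the replicate block 5 of the 36 genes had an unadjusted p under 0.05 by limma, against 3 without it. Of all 18193 genes 1565 had it with the block and 1620 without.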

Other observations

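Further myeloid genes outside the naming rule were looked at after their values were seen. Alox5, which starts leukotriene synthesis in granulocytes and mast cells, read 425, 681 and 182 in wild type and 154, 392 and 119 in knockout pools. As with Mpo, Elane and Prtn3, the second pool was the highest and the third the lowest in each genotype. The difference was -0.96 (SE 0.64, adjusted p = 0.670 by limma). In Lyz2, the lysozyme gene of macrophages and granulocytes, the third knockout pool was instead the highest of the 6, with 2182, 3163 and 2773 in wild type and 2771, 3047 and 4563 in knockout pools. The same pool was the highest for Cebpb, a transcription factor of macrophages and granulocytes, with 785, 1159.9 and 675 against 714, 895 and 1545.0.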
